A study of Mus with 7 samples.

Results

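The ribosomal protein (RP) genes, which encode the proteins of the cytosolic ribosome, were followed through 7 single-cell libraries of fetal liver-derived macrophages (FLMs). They were chosen by name, as mouse symbols that begin with Rpl or Rps and a digit, together with Rplp0, Rplp1, Rplp2 and Rpsa. Symbols beginning with Rps6k, which name kinases, and symbols containing -ps, which name pseudogenes, were left out. Of 31053 genes, 86 had such a symbol, and 84 of these had at least 100 unique molecular identifiers (UMIs, each marking 1 captured RNA molecule) in the cells that were kept. The remaining pair, Rpl10l and Rpl39l, had 0 and 2 UMIs, and the member with fewest, Rpl3l, had 718. Of the 84 genes, 77 encode the core proteins of the ribosome, 46 of the large subunit and 31 of the small one. Another 6 are paralogs, named after a core gene (Rpl3l, Rpl7l1, Rpl22l1, Rpl36al, Rps27l and Rps27rt). The last, Rps19bp1, encodes a protein that binds Rps19 and is no ribosomal protein, but its symbol meets the rule. Positions of all 84 were found by symbol in the RefSeq genes of mouse assembly GRCm38.p6, on 19 chromosomes.

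The ribosome reads mRNA on its small subunit and joins amino acids on its large one, and nearly every core protein is needed in 1 copy per ribosome. The mRNAs of RP genes are among the most abundant in growing cells and begin with a terminal oligopyrimidine (TOP) tract, through which the mTOR kinase and the RNA-binding protein LARP1 tie their translation to nutrients and growth factors. Macrophages stimulated through Toll-like receptors change both their transcripts and the rate at which they are translated. A transcript level is measured in these data, and neither translation nor ribosome number is.

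FLMs are self-renewing macrophages grown in GM-CSF (30 ng/mL) from the livers of wild-type C57BL/6J mouse fetuses at gestational days 14 to 18, and were used at passages 10 to 20. Con cells were in 10% FBS and were collected before any treatment. The other 6 libraries came from cells held for 24 h in 0.25% FBS with 8.3 µM BSA as vehicle (Veh) or with 25 µM docosahexaenoic acid (DHA, an omega-3 fatty acid) bound to 8.3 µM BSA, and then collected at once (0 h) or after 1 or 4 h of 20 ng/mL LPS, the bacterial ligand of Toll-like receptor 4. They were named Veh.LPS.0, DHA.LPS.0, Veh.LPS.1, DHA.LPS.1, Veh.LPS.4 and DHA.LPS.4. LPS came with a change of medium, which the 0 h cells did not have, and Con differed from Veh.LPS.0 in serum, BSA and time together, so the parts of each step cannot be told apart. Each condition was 1 library. Differences between conditions therefore have no replicate check and no p-value, and the 95% intervals (exact binomial, on summed UMIs) cover counting error only.

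Kept cells had over 20000 UMIs, at least 2000 genes and under 20% of UMIs from mitochondrial (mt-) genes. They numbered 2908 in Con, 2481 (Veh) against 698 (DHA) at 0 h, 3073 against 795 at 1 h, and 993 against 692 at 4 h, and their summed depth ran from 22045775 to 125716982 UMIs. They were 40.6 to 62.5% of the barcodes of Con and Veh, and 12.1 to 18.5% of those of DHA, a gap that lies under every comparison of DHA with Veh. Pairs of libraries shared 0 to 4 barcodes of kept cells, 16 over the 21 pairs. The macrophage label held: 9 macrophage markers summed to 5817 to 7089 CPM (UMI counts per gene scaled to the library's total) in the 7 libraries, while the 4 mast cell markers were at 0 in all of them and lists for neutrophils, hepatocytes, erythroid, stromal and lymphoid cells summed to at most 7.66 CPM.

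RP genes were a large part of the RNA captured from these macrophages. Summed over kept cells, the 84 genes made up 21.5% of UMIs in Con, 24.5% in Veh.LPS.0, 24.1% in DHA.LPS.0, 21.8% in Veh.LPS.1, 22.3% in DHA.LPS.1, 21.7% in Veh.LPS.4 and 20.1% in DHA.LPS.4. The share was thus highest in the unstimulated reduced-serum cells of either treatment and lowest in DHA after 4 h of LPS. Large and small subunit genes kept their proportion, with 1.24 to 1.25 UMIs of large subunit core genes for every UMI of small subunit core genes in each library. The mt- share of UMIs in the same cells was 7.72% in Con, and at 0, 1 and 4 h it was 7.72%, 7.20% and 7.20% with Veh, against 7.67%, 7.49% and 6.94% with DHA.

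**Figure D1:**
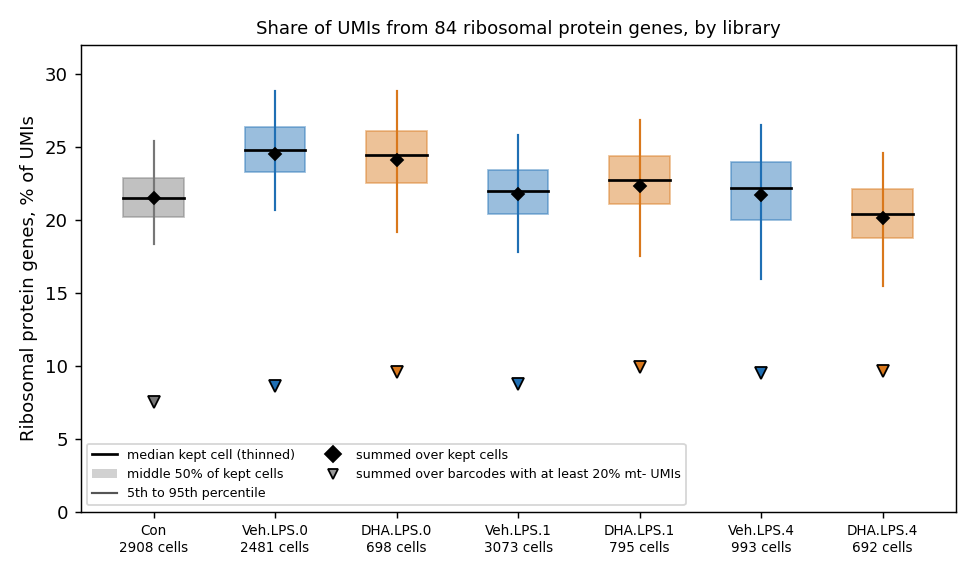
Share of UMIs from the 84 RP genes (percent, y axis) in each library (x axis), with the median, middle 50% and 5th to 95th percentiles of kept cells thinned to 20000 UMIs, the sum over kept cells (diamonds) and the sum over barcodes with at least 20% mt- UMIs (triangles). The 0 h libraries of Veh and DHA lie highest, with medians of 24.8 and 24.4%, and DHA.LPS.4 lies lowest, with a median of 20.4%.

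Over single cells the order was the same, apart from Veh.LPS.1 and Veh.LPS.4, which lay close together and changed places. With every cell thinned to 20000 UMIs, the median share was 21.5% in Con, 24.8% and 24.4% in Veh and DHA at 0 h, 21.98% and 22.7% at 1 h, and 22.2% and 20.4% at 4 h. Every kept cell entered, since each had more UMIs than that. Cells within a library differed far beyond counting: the SD of the share over cells was 2.23 to 3.31 percentage points, against 0.285 to 0.305 points from sampling of UMIs alone. It was smallest in Con and largest in Veh.LPS.4. Of the cells of Veh.LPS.0, 91.8% lay above the median of Con, whereas 10.4% of the cells of Veh.LPS.1 and 16.3% of those of Veh.LPS.4 lay above the median of Veh.LPS.0. Within each library the large and small subunit shares rose and fell together across cells (Pearson r from 0.94 to 0.97 over 692 to 3073 cells, which share library and total, given as a description).

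Nearly all members were detected in nearly all cells. In every library, 80 of the 84 genes had a UMI in over 99% of kept cells. Levels were counted from 3′ ends, 1 UMI per molecule, and were not divided by length. On that scale the mean CPM of the core genes over the 7 libraries ran from 31.2 for Rpl29 to 6647 for Rplp1, with a median of 2732. The 5 core genes with most UMIs held 12.4% of all RP UMIs. A read that aligns equally well to several genes is not counted by Cell Ranger, and RP genes have many near-identical copies in the genome, so a low level of a single gene, and any gene with such copies, is uncertain.

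The genes with most UMIs included Rplp1, Rps27a, Rpl13 and Rpl32. Rplp1 (ENSMUSG00000007892, GRCm38 chromosome 9, 61913283 to 61914510), which with Rplp0 and Rplp2 forms the stalk that recruits elongation factors, had 6484 CPM in Con, 7039 (Veh) against 7101 CPM (DHA) at 0 h, 6507 against 6902 CPM at 1 h, and 6296 against 6203 CPM at 4 h. Rplp0 (ENSMUSG00000067274) had 4241 CPM in Con, 4915 (Veh) against 4879 CPM (DHA) at 0 h, 4607 against 4469 CPM at 1 h, and 4621 against 4399.6 CPM at 4 h, and Rplp2 (ENSMUSG00000025508) had 2515 CPM in Con, 2811 (Veh) against 2639 CPM (DHA) at 0 h, 2414 against 2525 CPM at 1 h, and 2503 against 2308 CPM at 4 h. All 3 stalk genes were at their highest at 0 h and at their lowest in DHA.LPS.4, apart from Rplp0, whose lowest value was in Con. Rps27a (ENSMUSG00000020460), made as a fusion to ubiquitin, had 5111 CPM in Con, 5929 (Veh) against 5929.9 CPM (DHA) at 0 h, 5329 against 5456 CPM at 1 h, and 5434 against 5145 CPM at 4 h. Rpl13 and Rpl32, both of the large subunit, had 4789 to 5672 CPM and 4310 to 5240 CPM across the libraries.

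The 6 core genes singled out for known roles beyond the ribosome's structure, Rpsa, Rpl5, Rpl11, Rps6, Rps3 and Rpl13a, each had their highest value at 0 h and their lowest in DHA.LPS.4. Rpsa (ENSMUSG00000032518), also known as the laminin receptor, had 4645 CPM in Con, 5091 (Veh) against 5027 CPM (DHA) at 0 h, 4697 against 4494 CPM at 1 h, and 4246 against 4113 CPM at 4 h. Rpl5 (ENSMUSG00000058558) and Rpl11 (ENSMUSG00000059291) bind the 5S rRNA and, when free, hold back Mdm2. Rpl5 had 2027 CPM in Con, 2372 (Veh) against 2438 CPM (DHA) at 0 h, 2063 against 2121 CPM at 1 h, and 2242 against 1977 CPM at 4 h. Rpl11 had 2940.0 CPM in Con, 3016 (Veh) against 3026 CPM (DHA) at 0 h, 2638 against 2648 CPM at 1 h, and 2557 against 2302 CPM at 4 h. Rpl11 was thus well below its Con value in DHA.LPS.4, and Rpl5 was close to it. Rps6 (ENSMUSG00000028495), the substrate of S6 kinase, had 2293 CPM in Con, 2668 (Veh) against 2689.6 CPM (DHA) at 0 h, 2415 against 2374 CPM at 1 h, and 2628 against 2286 CPM at 4 h. Rps3 (ENSMUSG00000030744), also a DNA repair enzyme, had 2891 CPM in Con, 3434 (Veh) against 3494 CPM (DHA) at 0 h, 3020.4 against 2920.4 CPM at 1 h, and 3093 against 2749 CPM at 4 h. Rpl13a (ENSMUSG00000074129, GRCm38 chromosome 7, 45125563 to 45128745) leaves the ribosome in interferon-treated monocytes to silence inflammatory mRNAs. Its CPM was among the lowest of the core genes, and whether reads lost to near-identical copies lowered it was not tested. It had 313 CPM in Con, 378 (Veh) against 379 CPM (DHA) at 0 h, 329 against 331 CPM at 1 h, and 297 against 262 CPM at 4 h. Its highest value was 1.45 times its lowest, a wider range than that of the stalk genes.

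The core genes moved within narrow bounds. For 74 of the 77, the highest CPM was in a 0 h library, Veh.LPS.0 for 42 and DHA.LPS.0 for 32, and the lowest was in DHA.LPS.4 for 60 and in Con for 14. The ratio of a gene's highest to its lowest library had a median of 1.24 and ran from 1.12 for Rps13 to 2.03 for Rpl29.

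**Figure D2:**
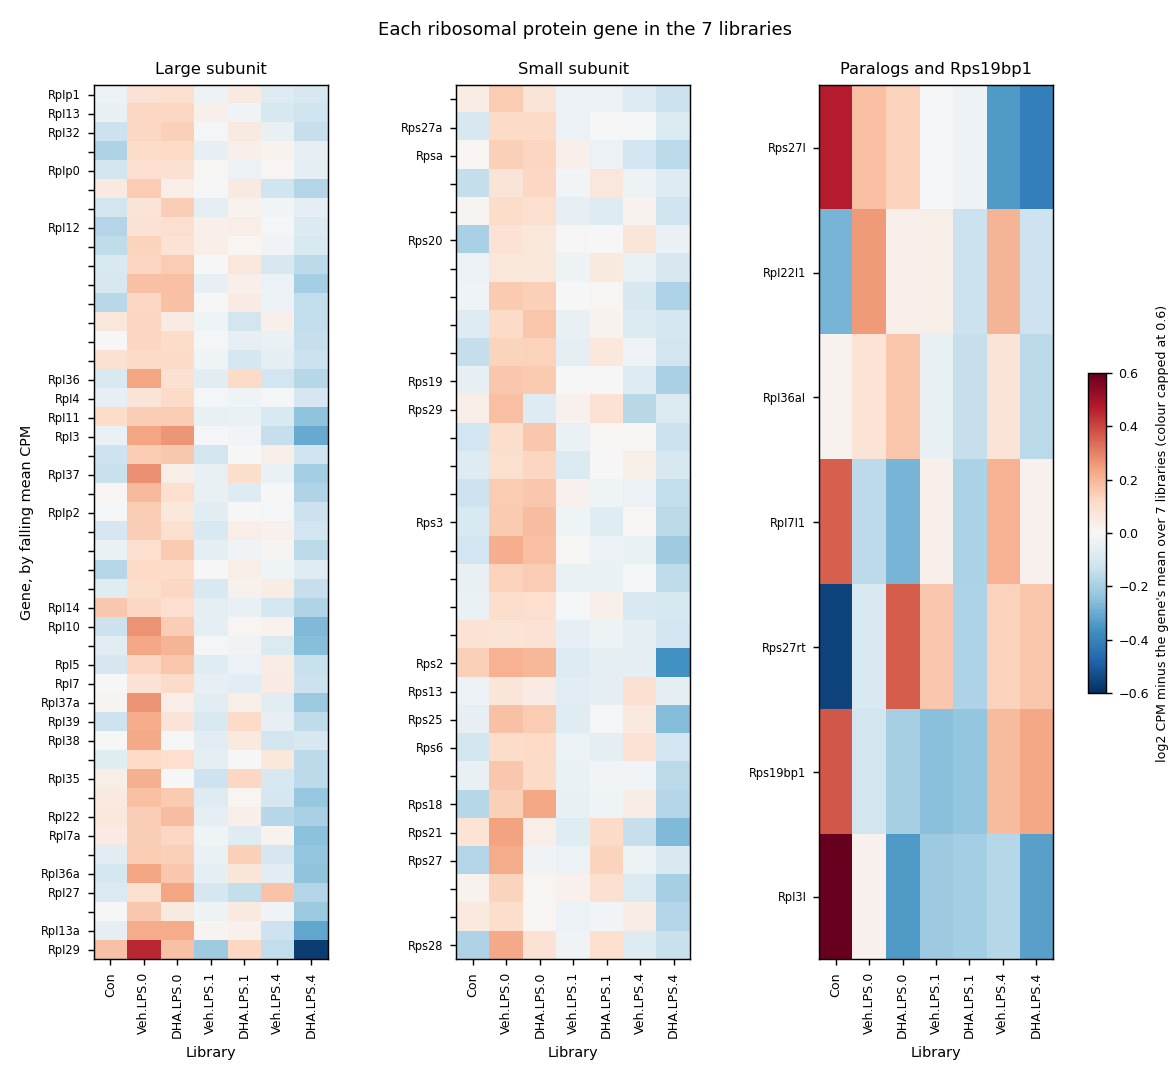
log2 CPM of each RP gene (rows, by falling mean CPM within a panel) in each of the 7 libraries (columns), as the difference from that gene's mean over the libraries, with the rows of genes described in the text labelled. Most core genes of both subunits are red (above their mean) in the 2 libraries of 0 h and blue in DHA.LPS.4, while paralogs such as Rpl7l1 and Rps27l are highest in Con.

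Nearly all core genes were higher after serum reduction. The comparison of Veh.LPS.0 with Con covers the change from 10% to 0.25% FBS with BSA for 24 h. The summed RP level was 1.141 times that of Con (95% interval 1.141 to 1.142, log2 0.19), and the median core gene had a log2 ratio of CPM of 0.21, with 75 of 77 higher and Rpl14 among the lower (-0.038). The median of all 6168 genes detected in 50% or more of the cells of either library was -0.12. Past 1.2-fold, 24 of the 83 members that passed this filter (all but Rpl3l) were higher and 3 lower, where 18.6% of all genes tested were higher and 34% lower. With TMM factors 11 members were higher and 3 lower past that fold, and the share of all genes was not counted under that scaling.

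Rps28 (ENSMUSG00000067288), one of the smallest proteins of the small subunit, was the core gene with the highest ratio, with 1242 CPM in Con, 1655 (Veh) against 1497 CPM (DHA) at 0 h, 1394 against 1515 CPM at 1 h, and 1339.9 against 1286 CPM at 4 h. Its ratio of Veh.LPS.0 to Con was 1.332 (95% interval 1.323 to 1.341). Rps27 had a log2 ratio of 0.40. Among the paralogs, Rpl22l1 and Rps27rt were higher and Rpl7l1, Rps27l and Rpl3l lower, as described further on. In cells with at most 1 UMI of 5 proliferation genes (Mki67, Top2a, Birc5, Cdk1 and Ccnb1), which were 3.61% of Con (105 cells) and 13.9% of Veh.LPS.0 (346 cells), the RP share was 24.0% and 25.2%, a log2 ratio of 0.070. In the other cells it was 21.4% and 24.4%. The difference was therefore smaller among the few cells with little proliferation mRNA.

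After 1 h of LPS every core gene was lower on the scale of library totals. Against Veh.LPS.0, the summed RP level had a ratio of 0.888 (95% interval 0.887 to 0.888, log2 -0.17), and all 77 core genes were lower, with a median of -0.18 and a range from -0.67 to -0.056. The median of all 5777 genes tested was -0.092, and only 3 core genes lay above it. Past 1.2-fold by library total, 0 of the 83 members were higher and 11 lower, against 10.2% and 14.8% of all genes. With TMM or DESeq2 factors 2 were higher and 1 lower, and the share of all genes was not counted under these scalings. With TMM factors the core median was -0.091 and 3 core genes, Rpl4, Rpl12 and Rps20, turned to higher, and with DESeq2 size factors 12 did.

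Rpl29 (ENSMUSG00000048758, GRCm38 chromosome 9, 106428889 to 106431568), a basic protein of the large subunit, was the lowest at 1 h relative to Veh.LPS.0, with 34.5 CPM in Con, 41.8 (Veh) against 34.5 CPM (DHA) at 0 h, 26.3 against 33.3 CPM at 1 h, and 27.5 against 20.5 CPM at 4 h. Its ratio at 1 h was 0.630 (95% interval 0.599 to 0.663), past 1.5-fold, where 2.08% of all genes were lower by as much. It had the lowest mean CPM of the core genes, with a UMI in 48.1 to 78.5% of cells. Whether reads lost to near-identical copies lowered its count was not tested. Rpl35 (ENSMUSG00000062997), at the exit of the large subunit's peptide tunnel, had 1698 CPM in Con, 1921 (Veh) against 1659.8 CPM (DHA) at 0 h, 1523 against 1805 CPM at 1 h, and 1550.3 against 1488 CPM at 4 h, and its ratio at 1 h was 0.792 (95% interval 0.787 to 0.798). Rpl37a (ENSMUSG00000046330), a zinc-binding protein of the large subunit, had 2161 CPM in Con, 2578 (Veh) against 2199.7 CPM (DHA) at 0 h, 2046 against 2189 CPM at 1 h, and 2039.7 against 1834 CPM at 4 h, and its ratio was 0.794 (95% interval 0.789 to 0.798). At the other end, Rpl12 (ENSMUSG00000038900), at the base of the stalk, had 3121 CPM in Con, 3744 (Veh) against 3773 CPM (DHA) at 0 h, 3600.2 against 3620.3 CPM at 1 h, and 3502 against 3328 CPM at 4 h, and a log2 ratio of -0.056. The other members past 1.2-fold were Rps2, Rps21, Rpl10, Rpl36, Rpl36a, Rpl37, Rpl38 and Rpl39.

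After 4 h of LPS the direction depended on the scaling. The summed RP level of Veh.LPS.4 over that of Veh.LPS.0 had a ratio of 0.886 by library total (95% interval 0.885 to 0.886, log2 -0.18), with 75 of 77 core genes lower and a core median of -0.17, but with TMM factors the summed log2 ratio was 0.26 and 76 of 77 core genes were higher, Rpl29 being the exception. Over all 6295 genes tested the median moved from -0.28 by library total to 0.15 with TMM. Relative to that median the core genes lay 0.11 higher, with 62 of 77 above it, which a scaling cannot change. Past 1.2-fold by library total, 2 of the 83 members were higher and 18 lower, against 19.7% and 50.9% of all genes tested. With TMM factors 41 were higher and 0 lower, and with DESeq2 factors 47 and 0. These scalings raise all genes alike, and the share of all genes past 1.2-fold was not counted under them. The counts are therefore no result about the members.

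Only Rpl29 passed 1.5-fold among the members at 4 h, with a ratio of 0.659 (95% interval 0.622 to 0.698) by library total, where 32.6% of all genes were lower by as much. Rps21 (ENSMUSG00000039001), a short protein of the small subunit, had 2214 CPM in Con, 2470.4 (Veh) against 2148 CPM (DHA) at 0 h, 1986 against 2263 CPM at 1 h, and 1899 against 1741 CPM at 4 h. Its log2 ratio at 4 h was -0.38 by library total and 0.052 with TMM. Rps13 and Rpl27, the core genes that were higher, had log2 ratios of 0.020 and 0.074 by library total. Between 1 h and 4 h of LPS the summed RP share in Veh was 21.8% and 21.7%, with 38 core genes higher and 39 lower by library total. The median of all 5852 genes tested was -0.18 by library total, and 76 of 77 core genes lay above it. With TMM factors and with DESeq2 size factors all 77 were higher from 1 h to 4 h. The core medians were 0.34 and 0.33, against 0.16 and 0.15 over all genes. Cells with at most 1 proliferation UMI went from 13.9% of Veh.LPS.0 to 55.3% of Veh.LPS.4, and within them the summed log2 ratio was -0.17. In cells of 20000 to 40000 UMIs it was -0.31, but few cells of Veh.LPS.4 lay there. By depth, the RP share of Veh.LPS.4 against Veh.LPS.0 was 17.8% (52 cells) against 25.6% (563 cells) at 20000 to 30000 UMIs. At 30000 to 40000 it was 21.9% (69 cells) against 25.1% (921 cells). At 40000 to 60000 it was 23.1% (452 cells) against 24.0% (841 cells). Above 60000 it was 20.9% (420 cells) against 23.3% (156 cells).

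By library total, RP levels were lower after LPS in DHA-treated cells too, and there the core genes lay close to the median of all genes tested. DHA.LPS.1 against DHA.LPS.0 gave a summed log2 ratio of -0.11, with 12 core genes higher and 65 lower, and with TMM factors 34 were higher and 43 lower. The core median was -0.12 by library total, against -0.11 over all 6315 genes tested, and 34 of 77 core genes lay above the latter. DHA.LPS.4 against DHA.LPS.0 gave -0.26, with all 77 lower by library total and 39 members lower past 1.2-fold, where 48.7% of all genes were as well. With TMM the core median of that comparison was 0.039 in place of -0.26, with 50 core genes higher and 27 lower. The median of all 6317 genes tested was -0.24 by library total and 0.056 with TMM, and 34 of 77 core genes lay above it.

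**Figure D3:**
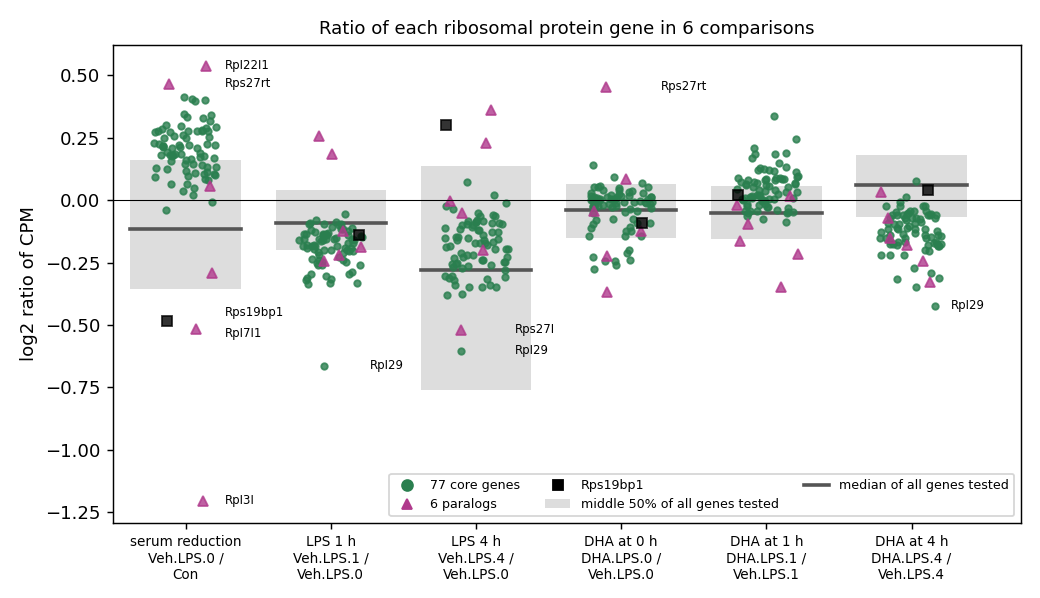
log2 ratio of CPM (library totals) of each RP gene in 6 comparisons, with core genes as circles, paralogs as triangles and Rps19bp1 as a square, over the median (line) and middle 50% (grey) of all genes tested. Core genes lie above the line for serum reduction (medians of 0.21 and -0.12) and below it for DHA at 4 h (medians of -0.12 and 0.059). With TMM factors the core genes and the line of LPS 4 h would move alike, to medians of 0.26 and 0.15.

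Before LPS the summed level in DHA was close to that in Veh. DHA.LPS.0 against Veh.LPS.0 gave a ratio of 0.982 (95% interval 0.981 to 0.983, log2 -0.026), with 33 core genes higher and 44 lower, a core median of -0.0083 and a median of -0.041 over all 6276 genes tested. With DESeq2 size factors the summed log2 ratio was 0.0061 with 52 core genes higher, so no direction is given. Past 1.2-fold, 1 of the 83 members was higher (Rps27rt) and 1 lower (Rpl29), against 5.59% and 10% of all genes. Of the cells of DHA.LPS.0, 43.7% lay above the median share of Veh.LPS.0. Over all deposited barcodes, without the filter on cells, the log2 ratio was -0.37.

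Single core genes differed more than the sum. Rps29 (ENSMUSG00000034892), a zinc-binding protein of the small subunit head, had 3469.6 CPM in Con, 3834 (Veh) against 3204 CPM (DHA) at 0 h, 3442 against 3587 CPM at 1 h, and 3016 against 3183 CPM at 4 h, and a ratio at 0 h of 0.836 (95% interval 0.830 to 0.841). Rpl29 had a ratio of 0.825 (95% interval 0.773 to 0.880). On the other side, Rpl27 (ENSMUSG00000063316), of the large subunit, had 891 CPM in Con, 1012 (Veh) against 1115 CPM (DHA) at 0 h, 882 against 856 CPM at 1 h, and 1066 against 836 CPM at 4 h, and a ratio of 1.101 (95% interval 1.088 to 1.114). Rps18 (ENSMUSG00000008668), of the small subunit head, had 1895 CPM in Con, 2357 (Veh) against 2510.3 CPM (DHA) at 0 h, 2074 against 2099 CPM at 1 h, and 2200.2 against 1891 CPM at 4 h, and a log2 ratio of 0.091.

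With 1 h of LPS the summed level was slightly higher in DHA than in Veh, with a ratio of 1.027 (95% interval 1.026 to 1.027, log2 0.038), 55 core genes higher and 22 lower, and a core median of 0.042 against -0.050 over all 5404 genes tested. Rpl29 was the single member past 1.2-fold higher and Rps27rt the single one lower, against 6.07% and 10.7% of all genes. Rpl29 had a ratio of 1.264 (95% interval 1.176 to 1.359), Rpl35 of 1.185 (95% interval 1.174 to 1.197), and Rpl39 (ENSMUSG00000079641), which lines the peptide tunnel, of 1.154 (95% interval 1.145 to 1.164). Over all deposited barcodes the summed log2 ratio was -0.29, the opposite sign. With TMM factors 65 of the core genes were higher in DHA.

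The core genes that were lower in DHA at 0 h included many that were higher at 1 h. Of the 15 core genes with a log2 ratio under -0.1 at 0 h, 9 had a log2 ratio above 0.1 at 1 h: Rpl29, Rpl35, Rpl36, Rpl37, Rpl38, Rpl39, Rps21, Rps27 and Rps28. Of all 77 core genes, 15 lay above 0.1 at 1 h. How many of all genes tested passed both cuts was not counted, so the pattern is not shown to be particular to RP genes. These 9 genes were chosen after their values were seen. By that choice each was higher in Veh than in DHA at 0 h and higher in DHA than in Veh at 1 h, as with Rpl38, which had 2000.3 CPM in Con, 2345 (Veh) against 1981 CPM (DHA) at 0 h, 1909.6 against 2082 CPM at 1 h, and 1854 against 1869 CPM at 4 h. Rpl37 likewise had 2364 CPM in Con, 3133 (Veh) against 2656 CPM (DHA) at 0 h, 2514 against 2787 CPM at 1 h, and 2521 against 2246 CPM at 4 h. Across the 77 core genes the log2 ratios of DHA to Veh at 0 h and at 1 h, which share no library, had Pearson r = -0.54 over genes, and -0.47 without Rpl29. Genes are not independent replicates, and each library enters all 77 ratios, so r is a description of these 4 libraries.

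**Figure D4:**
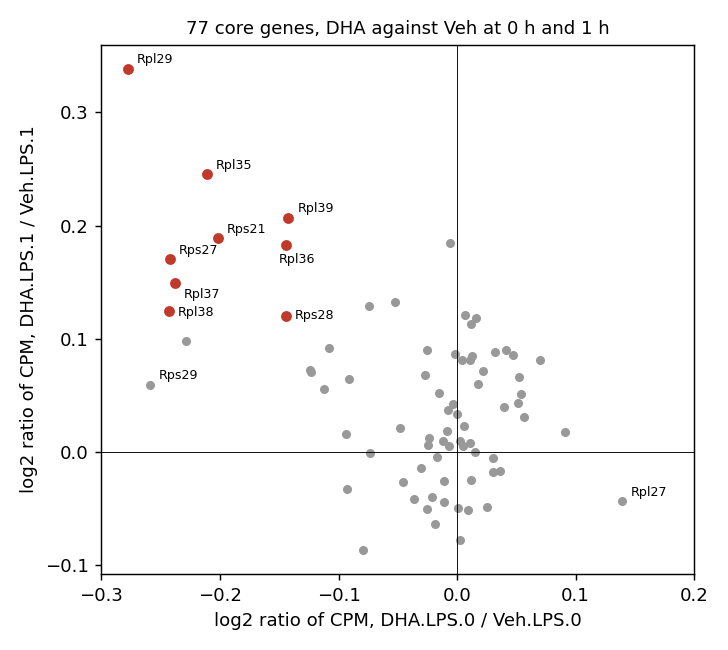
log2 ratio of CPM of DHA to Veh at 0 h (x axis) and at 1 h of LPS (y axis) for the 77 core genes, with the 9 genes below -0.1 at 0 h and above 0.1 at 1 h in red. By that cut those 9 genes lie in the upper left, with Rpl29 at -0.28 and 0.34, and Rpl27 lies farthest right at 0.14.

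After 4 h of LPS nearly all core genes were lower in DHA than in Veh. The summed ratio of DHA.LPS.4 to Veh.LPS.4 was 0.927 (95% interval 0.926 to 0.928, log2 -0.11), and 75 of 77 core genes were lower, with a median of -0.12, while the median of all 5579 genes tested was 0.059. A single core gene lay above that median. Past 1.2-fold by library total, 0 of the 83 members were higher and 7 lower, against 13.6% and 6.9% of all genes. With TMM factors 34 were lower and with DESeq2 factors 13, but the share of all genes was not counted under these scalings. The median of all genes was -0.063 with TMM. Of the cells of DHA.LPS.4, 24.0% lay above the median share of Veh.LPS.4. With TMM the summed log2 ratio was -0.23, and all 77 core genes were lower.

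The difference varied with the depth of the cells. In cells of 30000 to 40000 UMIs the RP share was 19.8% in DHA.LPS.4 (231 cells) and 21.9% in Veh.LPS.4 (69 cells). In cells of 40000 to 60000 it was 19.1% (91 cells) and 23.1% (452 cells), and above 60000 it was 19.4% (14 cells) and 20.9% (420 cells). In cells of 20000 to 30000 UMIs the order was reversed, with 21.0% (356 cells) and 17.8% (52 cells). Summed over cells of 20000 to 40000 UMIs the log2 ratio was -0.00037, with the 2 bins differing in direction. Over all deposited barcodes it was -0.42, and in cells with at most 1 proliferation UMI, which were 45.2% of DHA.LPS.4 and 55.3% of Veh.LPS.4, it was -0.10. Median depth was 29631 UMIs in DHA.LPS.4 and 56239 in Veh.LPS.4.

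The members that were lowest at 4 h were Rpl29, Rpl27 and the paralog Rpl22l1. Rpl29 had a ratio of 0.746 (95% interval 0.671 to 0.828) and Rpl27 of 0.785 (95% interval 0.772 to 0.798). Rps2 (ENSMUSG00000044533), a small subunit protein at the mRNA entry, had 3079.9 CPM in Con, 3224 (Veh) against 3205 CPM (DHA) at 0 h, 2639 against 2673 CPM at 1 h, and 2689.9 against 2168 CPM at 4 h, and a log2 ratio of -0.31. Rps25, Rpl10 and Rpl7a were the other core genes past 1.2-fold lower. Rps29 and Rpl38 were the pair that was not lower, Rps29 with a ratio of 1.056 (95% interval 1.046 to 1.065).

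Several paralogs differed in direction from the genes they are named after. Rpl22l1 (ENSMUSG00000039221, GRCm38 chromosome 3, 28805508 to 28807424), a paralog of the RNA-binding protein Rpl22, had 479.8 CPM in Con, 695 (Veh) against 595 CPM (DHA) at 0 h, 597 against 533 CPM at 1 h, and 671 against 534 CPM at 4 h. Rpl22 (ENSMUSG00000028936) had 1658 CPM in Con, 1759 (Veh) against 1809 CPM (DHA) at 0 h, 1524 against 1621 CPM at 1 h, and 1412 against 1391 CPM at 4 h. From Con to Veh.LPS.0 the paralog's ratio was 1.450 (95% interval 1.434 to 1.465), the highest of any member, and that of Rpl22 was 1.060 (95% interval 1.054 to 1.067). With DHA the paralog was lower at each hour, with log2 ratios of -0.22, -0.16 and -0.33, whereas Rpl22 stood at 0.041, 0.090 and -0.022.

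Rps27l (ENSMUSG00000036781, GRCm38 chromosome 9, 66944624 to 66949522), which p53 induces, had 1778 CPM in Con, 1451 (Veh) against 1407 CPM (DHA) at 0 h, 1273 against 1255 CPM at 1 h, and 1012 against 963 CPM at 4 h. It was highest in Con and lower at each later hour of either treatment, with 0.698 (95% interval 0.691 to 0.704) at 4 h of LPS by library total. It and Rpl29 were the members that stayed lower at 4 h of LPS with TMM. Rps27 (ENSMUSG00000090733) had 1746 CPM in Con, 2301 (Veh) against 1946 CPM (DHA) at 0 h, 1924 against 2165 CPM at 1 h, and 1930.1 against 1852 CPM at 4 h, with its lowest value in Con, where Rps27l had its highest. Rps27rt (ENSMUSG00000050621, GRCm38 chromosome 9, 114982366 to 114982739), an intronless retrogene copy of Rps27, had 53.8 CPM in Con, 74.3 (Veh) against 102 CPM (DHA) at 0 h, 88.7 against 69.7 CPM at 1 h, and 87.1 against 89.0 CPM at 4 h. It was the member highest above Veh in DHA at 0 h, with a ratio of 1.370 (95% interval 1.316 to 1.426), and the lowest at 1 h, with 0.786 (95% interval 0.750 to 0.824), the opposite of Rps27, whose log2 ratios were -0.24 and 0.17. At 4 h its interval included 1. Reads of the copy and its parent can be hard to tell apart, and the part of this in their opposite ratios was not tested.

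Rpl7l1 (ENSMUSG00000063888, GRCm38 chromosome 17, 46773907 to 46782656), a nucleolar protein needed to build the large subunit, had 267 CPM in Con, 187 (Veh) against 171 CPM (DHA) at 0 h, 212 against 183 CPM at 1 h, and 240.1 against 212 CPM at 4 h. It was lower with serum reduction, at 0.700 (95% interval 0.687 to 0.713), and higher with LPS at 4 h, at 1.285 (95% interval 1.257 to 1.314), while Rpl7 (ENSMUSG00000043716) had 2155 CPM in Con, 2280.3 (Veh) against 2328 CPM (DHA) at 0 h, 2075 against 2049.5 CPM at 1 h, and 2223 against 1968 CPM at 4 h. Rps19bp1 (ENSMUSG00000051518) had 74.6 CPM in Con, 53.4 (Veh) against 50.1 CPM (DHA) at 0 h, 48.4 against 49.1 CPM at 1 h, and 65.7 against 67.6 CPM at 4 h, and was likewise highest in Con and higher at 4 h of LPS than at 0 h, with a ratio of 1.231 (95% interval 1.180 to 1.283). Neither Rpl7l1 nor Rps19bp1 is a structural protein of the finished ribosome, and by library total both stood on the other side of 0 from the core genes in serum reduction and in LPS at 4 h. With TMM the core genes were higher at 4 h of LPS as well.

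Rpl36al (ENSMUSG00000049751), a retrogene copy of the X-linked Rpl36a, had 492 CPM in Con, 512 (Veh) against 543 CPM (DHA) at 0 h, 470.5 against 439.9 CPM at 1 h, and 512 against 433 CPM at 4 h. Rpl36a (ENSMUSG00000079435) had 1201 CPM in Con, 1522 (Veh) against 1446 CPM (DHA) at 0 h, 1240.3 against 1356 CPM at 1 h, and 1234 against 1094 CPM at 4 h. Their log2 ratios were 0.057 and 0.34 with serum reduction. Rpl3l (ENSMUSG00000002500, GRCm38 chromosome 17, 24727826 to 24736143), the form of Rpl3 known from striated muscle, was near the limit of detection, with 2.80 CPM in Con, 1.22 (Veh) against 0.942 CPM (DHA) at 0 h, 1.03 against 1.04 CPM at 1 h, and 1.06 against 0.953 CPM at 4 h and a UMI in 2.89 to 10.6% of cells, so it did not pass the cell filter. Its ratio of Veh.LPS.0 to Con was 0.434 (95% interval 0.350 to 0.535), the lowest of any member, and its intervals included 1 for LPS and for DHA. Rpl3 (ENSMUSG00000060036) had 2631 CPM in Con, 3185 (Veh) against 3253 CPM (DHA) at 0 h, 2686 against 2676 CPM at 1 h, and 2457 against 2193 CPM at 4 h.

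**Figure D5:**
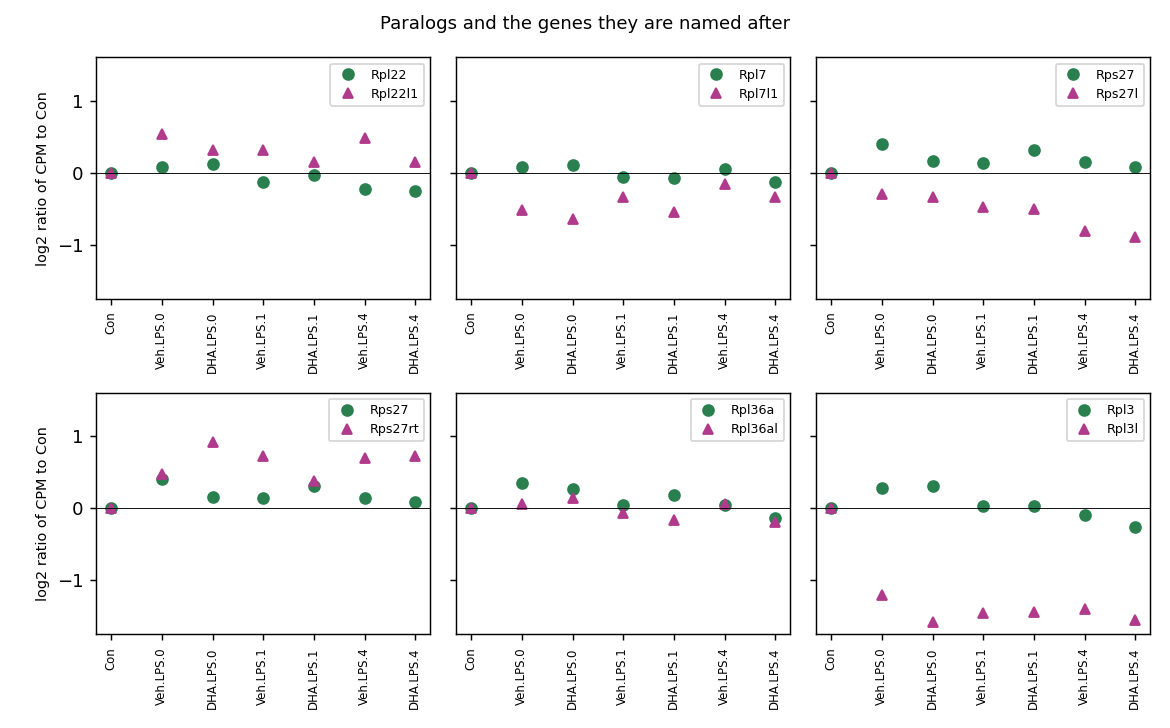
log2 ratio of CPM to Con (y axis) in each library (x axis) for 6 paralogs (triangles) and the core genes they are named after (circles). Rpl22l1 and Rps27rt lie above 0 in all 6 treated libraries, and Rpl7l1, Rps27l and Rpl3l lie below it in all 6.

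Other components of the translation machinery moved partly with the RP genes. Fau (ENSMUSG00000038274), which encodes a small subunit protein fused to a ubiquitin-like domain, and Rack1 (ENSMUSG00000020372), a small subunit scaffold, are ribosomal components with other names. The log2 ratios of Fau were 0.30 for serum reduction, -0.20 for LPS 1 h and -0.11 for LPS 4 h, and -0.030, 0.028 and -0.12 for DHA at 0, 1 and 4 h. Those of Rack1 were 0.25, -0.11 and -0.11, and 0.018, -0.031 and -0.10 for DHA. At LPS 4 h both were lower by library total and turn to higher with the TMM shift of 0.43. Eef1a1 (ENSMUSG00000037742), the elongation factor that brings tRNA to the ribosome, was at 8214 CPM in Con and at 11725 CPM in Veh.LPS.0. Over 6 elongation factors the median was -0.11 for serum reduction, close to the -0.12 of all genes tested, from 0.51 for Eef1a1 to -0.64 for Eif5a, and at 4 h of LPS all 6 were lower in DHA than in Veh (median -0.092, against 0.059 over all genes). Of 11 other mRNAs known to carry TOP tracts, 7 were higher with serum reduction (median 0.072, against -0.12 over all genes) and 10 lower in DHA than in Veh at 4 h (median -0.075, against 0.059), by library total. After 1 h of LPS 8 were lower, with a median of -0.088 that lay at the -0.092 of all genes. The DESeq2 shift of 0.12 turns the 1 h median to higher.

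Mitochondrial RP genes stood apart from the core cytosolic genes for serum reduction, for LPS 4 h and for DHA at 4 h. For serum reduction, 68 of 78 were lower and the median was -0.30. All genes tested had -0.12 there and the core cytosolic genes 0.21. For LPS 1 h the median was -0.14 with 66 lower, against -0.092 over all genes and -0.18 for the core cytosolic genes. For LPS 4 h it was -0.43 with 62 of 77 lower by library total, a median of the same size as the TMM shift. All genes tested had -0.28 there and the core cytosolic genes -0.17. A scaling shifts these medians alike, so the mitochondrial median stays below that of all genes and the core median above it. For DHA at 4 h by library total, 49 of 77 were higher and the median was 0.057, against 0.059 for all genes tested. The core cytosolic genes were at -0.12 there. The TMM and DESeq2 shifts of -0.12 and -0.075 both turn the mitochondrial median to lower. Of 24 initiation factors, 20 were lower with serum reduction (median -0.32, against -0.12 over all genes). By library total 15 were higher after 4 h of LPS (median 0.19, against -0.28 over all genes), led by Eif1 at 1.47.

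Among 13 regulators of TOP mRNAs and growth, Myc (ENSMUSG00000022346), a transcription factor that drives ribosome production, had 0.263 CPM in Con, 0.577 (Veh) against 1.03 CPM (DHA) at 0 h, 4.15 against 4.93 CPM at 1 h, and 11.1 against 9.12 CPM at 4 h. Before LPS Myc was near the limit of detection, with 33 UMIs in Con and 57 (Veh) against 36 (DHA) at 0 h. In the library where it was detected least, 0.894% of cells had a UMI of it. Eif4ebp2, which holds back the cap-binding factor Eif4e until mTOR phosphorylates it, had 54.6 CPM in Con, 42.7 against 34.9 CPM at 0 h, 33.9 against 30.1 CPM at 1 h, and 14.2 against 15.7 CPM at 4 h. Eif4ebp1, of the same role, took another course, with 239 CPM in Con, 273 against 360.4 CPM at 0 h, 242 against 309 CPM at 1 h, and 307 against 411 CPM at 4 h, higher in DHA at each hour (log2 ratios of 0.40, 0.35 and 0.42). Larp1, which binds TOP tracts, was higher in Con, at 146 CPM, than in the 6 other libraries, at 82.1 to 107 CPM. Their proteins and phosphorylation were not measured.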

How the data were processed

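The authors made 10x Chromium 3′ (v3 chemistry) libraries and deposited, per the file headers, Cell Ranger 3.1.0 UMI counts per gene and barcode on build mm10, without normalization. The study's methods name another version. Doublets were not called, and the 5% of cells with most UMIs were left out as an alternative. Cells were kept with the study's limits (over 20000 UMIs, at least 2000 genes, under 20% mt- UMIs). Counts were summed per gene and library and divided by the library total (CPM). A ratio of CPM between libraries is given with an exact binomial (Clopper-Pearson) 95% interval from SciPy 1.17.1. UMIs were taken as independent molecules, so intervals cover counting error only. Genes detected in 50% or more of the cells of either library were tested by size alone, past 1.2-fold or 1.5-fold. Genes of the other lists, such as initiation factors, needed at least 10 UMIs in both libraries. Their medians and that of all genes tested therefore rest on different filters. TMM factors (edgeR 4.0.16) and DESeq2 1.42.0 size factors served as other scalings. The interval's coverage was checked on simulated counts drawn independently, as the interval assumes. That check does not bear on spread between cells or libraries. Named genes were, per comparison, the 3 members with the highest and lowest ratio, the 5 with most and fewest UMIs by mean CPM, paralogs with their parents, and 10 chosen for known roles. The others named, such as Rps2, Rpl38 and Rpl37, were chosen after their values were seen. The members and lists were chosen with earlier results of these data known. Some genes that meet the naming rule are not reported here. No sequences of the members were used here.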

Additional observations from a re-analysis of the deposited data

Results flagged for a closer look

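The ratio of DHA to Veh changed sign between hours of LPS for the sum and for a few members, and these differences between hours were not tested, since each condition was 1 library. The summed RP level had a log2 ratio of -0.026 at 0 h, 0.038 at 1 h and -0.11 at 4 h. Rps27rt had 0.45 at 0 h and -0.35 at 1 h. Rpl29 had -0.28 at 0 h, 0.34 at 1 h and -0.42 at 4 h.

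Only the comparisons over all deposited barcodes took in the barcodes with at least 20% mt- UMIs. There were 1351 of them in Con, 1686 (Veh) against 2884 (DHA) at 0 h, 2041 against 3269 at 1 h and 1337 against 4580 at 4 h. RP genes made up 7.54% of their UMIs in Con, 8.60% (Veh) against 9.57% (DHA) at 0 h, 8.76% against 9.91% at 1 h and 9.50% against 9.65% at 4 h, under the share of kept cells in every library. Of their UMIs outside mt- genes, RP genes made up 13.6 to 16.2%, against 21.6 to 26.6% in kept cells.

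The 9 RP pseudogene symbols (-ps) were left out of the members, and 1 of them, Rpl36-ps4, had no UMI. They summed to 132 CPM in Con, 155 (Veh) against 177 CPM (DHA) at 0 h, 171 against 142 CPM at 1 h and 152 against 148 CPM at 4 h. The largest, Rpl10-ps3, had 57.2 CPM in Con, 75.4 against 97.0 CPM at 0 h, 94.9 against 67.3 CPM at 1 h and 83.4 against 77.2 CPM at 4 h. Like Rps27rt it was higher in DHA than in Veh at 0 h and lower at 1 h, while its parent Rpl10 was lower in DHA at 0 h.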

How the results depend on the processing

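Each setting is given as the summed log2 ratio for serum reduction, LPS 1 h, LPS 4 h, and DHA at 0, 1 and 4 h, in that order. By library total in kept cells the values were 0.19, -0.17, -0.18, -0.026, 0.038 and -0.11. TMM factors gave 0.15, -0.084, 0.26, -0.018, 0.069 and -0.23. DESeq2 size factors gave 0.18, -0.054, 0.28, 0.0061, 0.068 and -0.18. Totals without mt- genes gave 0.19, -0.18, -0.18, -0.027, 0.042 and -0.11, and totals of all genes that are no members 0.25, -0.22, -0.23, -0.035, 0.049 and -0.14. All deposited barcodes gave 0.15, -0.15, -0.25, -0.37, -0.29 and -0.42. A UMI minimum of 10000 gave 0.19, -0.17, -0.18, -0.028, 0.034 and -0.11, and cells of 20000 to 40000 UMIs 0.21, -0.20, -0.31, -0.0080, 0.068 and -0.00037. Without the 5% of cells with most UMIs the values were 0.20, -0.17, -0.17, -0.031, 0.042 and -0.11, and with each cell thinned to 20000 UMIs 0.20, -0.18, -0.18, -0.031, 0.039 and -0.10. Cells with at most 1 proliferation UMI gave 0.070, -0.16, -0.17, -0.013, 0.019 and -0.10. Without paralogs, their parents and the parents of -ps symbols they were 0.19, -0.17, -0.17, -0.025, 0.036 and -0.10. An mt- limit of 10% and the 77 core genes alone, both chosen after seeing the data, gave 0.20, -0.17, -0.16, -0.020, 0.051 and -0.11, and 0.19, -0.17, -0.17, -0.026, 0.039 and -0.11.

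The sign of the sum turned for LPS 4 h with TMM and DESeq2 factors, for DHA at 0 h with DESeq2 factors and for DHA at 1 h over all barcodes. Named members whose sign turned were, among others, Rps21 at LPS 4 h, which turned to 0.052 with TMM and 0.071 with DESeq2 factors, Rpl12 at LPS 1 h (0.031 and 0.062), Rpl29 for DHA at 1 h, which turned to -0.16 over all barcodes, and Rpl3l for DHA at 0 h, which turned to 0.12 in cells of 20000 to 40000 UMIs. For DHA at 4 h, TMM factors turned Rps29 to -0.044, Rps19bp1 to -0.081 and Rps27rt to -0.091. A scaling shifts every gene alike (by 0.43 and 0.45 at LPS 4 h), and the cause of the turns over barcodes and cells was not tested. The median over all members, paralogs included, minus the median of all genes tested cannot change with the scaling or the total used. Over 12 settings, those among them, it ran from 0.15 to 0.32 for serum reduction. It ran from -0.12 to -0.059 for LPS 1 h and from 0.023 to 0.12 for LPS 4 h. For DHA it ran from -0.13 to 0.042 at 0 h, from 0.0013 to 0.10 at 1 h and from -0.23 to -0.080 at 4 h. Its sign thus held except for DHA at 0 h, and only settings that changed the cells or their weight could turn it. No paired analysis was possible because each group has 1 library, so no library could be left out of a group either. Depth limits Rpl3l and Rpl29 most.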

Other observations

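Within the LPS libraries and both 0 h libraries, cells with a larger mt- share tended to a smaller RP share. The Pearson r across cells was 0.034 in Con, -0.12 (Veh) against -0.23 (DHA) at 0 h, -0.17 against -0.38 at 1 h, and -0.41 against -0.29 at 4 h. These cells share a library and the shares a total, so r is a description with no test. In Veh.LPS.4 the RP share was 21.98% in 829 cells with 5 to 10% mt- UMIs and 18.8% in 100 cells with 10 to 20%.

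Cells with more proliferation mRNA had a smaller RP share, with r from -0.35 in DHA.LPS.4 to -0.18 in DHA.LPS.1. Cells with at most 1 proliferation UMI had the larger RP share in each of the 7 libraries, from 24.0% against 21.4% in Con to 22.9% against 22.1% in DHA.LPS.1.

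Most mitochondrial RP genes were lower after 4 h of LPS in Veh by library total, 62 of 77, but the spread was wide. Their median was -0.43, against -0.28 over all genes tested. At the ends of that range, Mrpl52 had a log2 ratio of 1.54 and Mrpl18 of -1.41. Eif1, the initiation factor that checks start codons, had 694 (Veh) against 719 CPM (DHA) at 0 h, 1268 against 1289 CPM at 1 h, and 1916 against 1653 CPM at 4 h.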
